A study of Mus musculus with 8 samples.

Results

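Phase II conjugating enzymes are the transferases that couple a foreign or spent compound to glutathione, glucuronic acid or sulfate. In a table of RNA read counts from mouse olfactory epithelium they were taken by gene name, as glutathione transferases of the cytosolic and kappa classes (names starting with Gst), UDP-glucuronosyltransferases (Ugt1, Ugt2 and Ugt3) and sulfotransferases (Sult). The rule used names alone and no measured value. It found 58 of the 25913 genes in the table, made up of 21 Gst, 20 Ugt and 17 Sult genes.

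Conjugation makes a compound more soluble in water and marks it for export from the cell. In the olfactory mucosa these enzymes act on inhaled chemicals and on odorants themselves, and they are best known from sustentacular cells and Bowman's glands, which lie beside the sensory neurons. Glutathione transferases join glutathione to reactive groups, glucuronosyltransferases use UDP-glucuronic acid made by UDP-glucose dehydrogenase, and sulfotransferases use the sulfate donor PAPS.

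The mice were C57BL/6J animals aged 40 weeks, and RNA from the dissected olfactory epithelium was sequenced as poly(A)-selected, stranded libraries. The libraries were grouped by title, 4 titled IGF1R_flfl and 4 titled OMP_IGF1R. The design text compares a tissue-specific knockout of Igf1r, the receptor of insulin-like growth factor 1, with floxed controls. The knockout is given as homozygous, flfl names the floxed allele, and the driver named after Omp acts in mature olfactory sensory neurons, so other cells of the dissected epithelium were not its target. The genotype field gives the libraries titled IGF1R_flfl as OMPIGF1 (KO) and those titled OMP_IGF1R as OMPflfl (Ctrl), which is the reverse of the titles. All differences below are therefore stated as libraries titled OMP_IGF1R over libraries titled IGF1R_flfl, and the groups are named by title throughout. The labels do not say that each library came from a separate animal, and the p-values then cover no more than the spread from library to library. The numbers that open the titles run from 35138 to 35141 for IGF1R_flfl and from 35156 to 35159 for OMP_IGF1R, and any batch that follows them cannot be told apart from the group.

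Total counts lay between 18802471 and 27793375 per library. Levels are CPM (counts scaled to a common library size) on library sizes scaled by edgeR's TMM factors. A floor of 3 counts, about the upper 95% limit of counting error for a count of 0, came to 0.109 to 0.153 CPM. Where 4 values are listed for a group, they stand in the order 1, 2, 3 and 13 for IGF1R_flfl and 11, 12, 17 and 18 for OMP_IGF1R. Igf1r was at 66.5 ± 7.65 CPM (SD, n = 4) in IGF1R_flfl and 42.1 ± 6.32 CPM (n = 4) in OMP_IGF1R (log2 fold change -0.66, edgeR adjusted p = 0.0117). Its level was thus lower in the libraries that the genotype field calls controls, and a count over the whole gene does not show which exons were read. Omp, the olfactory marker protein of mature sensory neurons, was at 5386 ± 990 CPM (n = 4) against 1969 ± 224 CPM (n = 4), and all 12 listed markers of those neurons fell, their sums running from 14695 to 20602 CPM against 8288 to 10102 CPM. Of 6 immature neuron markers 5 were called higher, with sums of 562 to 665 CPM against 788 to 863 CPM. All 6 markers of precursors and dividing cells were called higher, with sums of 64.2 to 74.7 CPM against 101 to 136 CPM. The part of these rises in the higher values of Sult5a1, Gstt1, Hpgds and Ahrr given below was not tested. Of 7 sustentacular markers 0 were called by edgeR, DESeq2 or voom, 1 had an unadjusted edgeR p under 0.05, and their sums overlapped (11084 to 13438 CPM against 10791 to 12198 CPM). Of 9 nasal gland markers the same tools called 0, with sums of 11639 to 26145 CPM against 16173 to 25297 CPM. The 4 with an unadjusted edgeR p under 0.05, Aqp5, Gpx6, Muc5b and Sox9, were higher, at log2 fold changes of 0.20 to 0.38. The list median was 0.20, while Obp1a, Bpifb9a and Bpifb9b lay below 0. Those genes varied widely between libraries, Obp1a from 38.4 to 11994 CPM. The part of gland markers in the members' values was not tested. The sum over genes of olfactory bulb and oligodendrocytes was 1329 CPM in IGF1R_flfl 2 against 57.1 to 93.2 CPM elsewhere, and muscle genes to 464 CPM in OMP_IGF1R 17 against 4.50 to 7.19 CPM elsewhere. In bulk RNA, fewer cells of a type and less RNA per cell cannot be told apart.

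Few conjugating enzymes were called between the title groups. Gstm1, the most abundant glutathione transferase here, fell in OMP_IGF1R, and Sult5a1, a sulfotransferase at a very low level, rose. Of the 58 genes, 40 passed the filter on low counts and were tested, and 2 of the 40 (5.0%) were called at an edgeR adjusted p under 0.05. The share called among all 17381 genes tested was 8.20%, with 2.83% called higher and 5.37% lower in OMP_IGF1R. The members' share was no larger than that background. The groups did not overlap in 5 of the 40 (12.5%), against 16.9% of all genes, and 9 of the 40 (22.5%) had an unadjusted p under 0.05, against 23.5%. The median log2 fold change was 0.01 over the 40 members and -0.01 over all genes, with 21 members above 0 and 19 below.

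**Figure D1:**
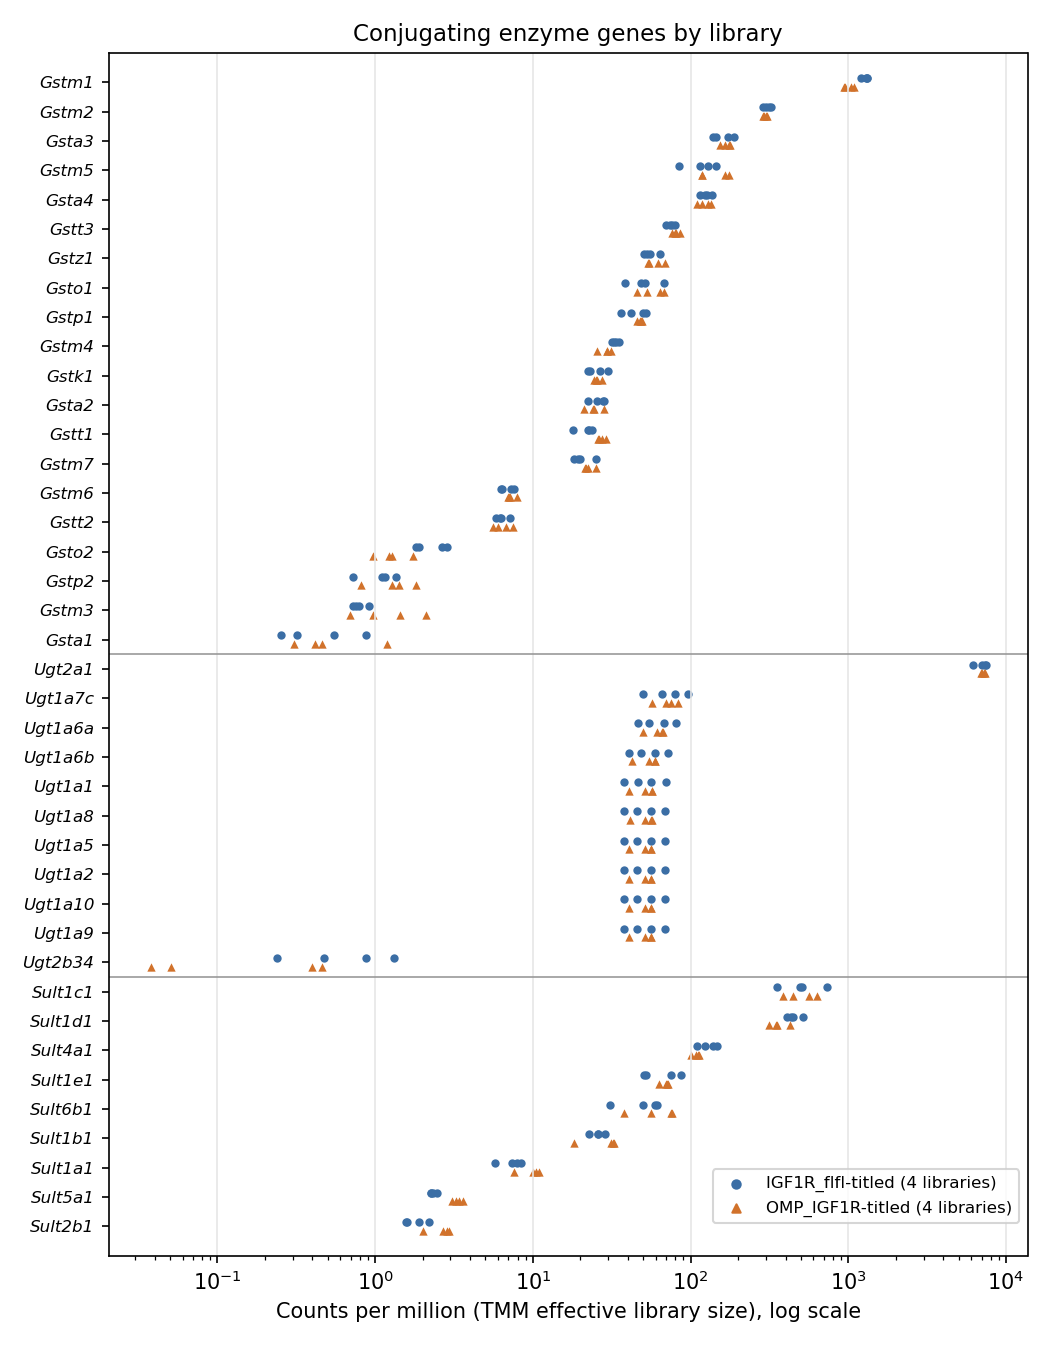
CPM of the 40 tested conjugating enzyme genes on a log axis, one point per library (circles, 4 libraries titled IGF1R_flfl; triangles, 4 titled OMP_IGF1R), with lines between Gst, Ugt and Sult genes. Ugt2a1 stood far above every other member, and the groups were apart for Gstm1, Gstm4, Gstt1, Gsto2 and Sult5a1 alone.

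Glucuronidation genes came to 1 very abundant gene, 1 locus of shared exons and a group of rows near 0. None of their 11 tested rows was called by edgeR, DESeq2 or voom, and 0 had an unadjusted edgeR p under 0.05. Ugt2a1, the olfactory UDP-glucuronosyltransferase known for its activity on odorants, ranked 3 of 25913 genes by mean CPM. It took between 0.616% and 0.757% of all counts in a library and 99.3% of the CPM of all Ugt genes when the Ugt1a locus is counted once. Its level was 6201, 7440, 7039 and 7323 CPM across the IGF1R_flfl libraries, against 6925, 7297, 7397 and 7001 CPM across the OMP_IGF1R libraries. The lowest library was IGF1R_flfl 1, and the other 7 lay close together across both groups. The log2 fold change was 0.03 ± 0.06 (SE), with a 95% interval from -0.09 to 0.15 and an edgeR adjusted p of 0.806. The direction of so small a difference turned when IGF1R_flfl 1 was left out (-0.0229).

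The row named Ugt2a1 lies on chromosome 5 (chr5:87459490-87490871, GRCm38, minus strand), and its identifier belongs to Ugt2a2 in GENCODE M21. That release places Ugt2a1 between the same bounds, and 93.47% of the 100-base windows in the row's transcripts also occur in another gene's transcripts. The row therefore stands for Ugt2a1 and Ugt2a2 together, a pair that shares its later exons, and their separate levels cannot be read from it.

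The Ugt1a locus on chromosome 1 makes its enzymes by joining 1 of a series of first exons, each with its own promoter, to the same following exons. The first exon sets which substrates an enzyme binds, and the shared exons hold the part that binds the UDP-sugar. The junctions of the 9 rows are shown because they bear on what each count can mean. The last 30 bases of each first exon are in lower case and the first 20 bases of the shared exon (chr1:88215044-88215063, GRCm38, plus strand) in capitals, read from the reference genome with GENCODE M21 exons.
Ugt1a10: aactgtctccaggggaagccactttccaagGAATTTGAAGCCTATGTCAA
Ugt1a9: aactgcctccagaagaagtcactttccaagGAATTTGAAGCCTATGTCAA
Ugt1a8: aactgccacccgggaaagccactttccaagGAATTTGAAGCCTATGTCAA
Ugt1a7c: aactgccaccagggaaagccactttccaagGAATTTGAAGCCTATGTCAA
Ugt1a6a: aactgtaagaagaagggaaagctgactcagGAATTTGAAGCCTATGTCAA
Ugt1a6b: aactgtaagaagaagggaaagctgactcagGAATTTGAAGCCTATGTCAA
Ugt1a5: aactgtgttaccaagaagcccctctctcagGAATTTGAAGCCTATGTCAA
Ugt1a2: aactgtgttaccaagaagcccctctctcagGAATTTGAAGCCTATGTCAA
Ugt1a1: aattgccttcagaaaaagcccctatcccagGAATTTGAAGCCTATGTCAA
Every line ends in the same capitals, and a read that starts right of the junction carries no mark of the first exon it was spliced to. Ugt1a6a and Ugt1a6b are alike over all 30 lower-case bases, and so are Ugt1a5 and Ugt1a2.

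The deposited counts of these rows were nearly the same number repeated. The rows of Ugt1a10, Ugt1a9, Ugt1a8, Ugt1a5, Ugt1a2 and Ugt1a1 ran from 1038 to 1041 counts in IGF1R_flfl 1, from 1809 to 1823 in IGF1R_flfl 2 and from 1332 to 1343 in OMP_IGF1R 18. A read on the shared exons was thus counted once in every row, and the 9 rows are not 9 measurements. Reads beyond the lowest row of each library were found mainly in 3 rows. Ugt1a7c, whose class acts on bulky phenols, exceeded the lowest row by 342 to 718 counts over the 8 libraries. Ugt1a6a, whose class acts on small planar phenols, exceeded it by 193 to 310 counts, and Ugt1a6b by 53 to 81 counts. The rows of Ugt1a7c and Ugt1a6a also run further at the 3′ end, to base 88220002, than the other rows, which end by 88219004, so their excess holds reads of that stretch as well as of the first exon. The Ugt1a6a row starts at base 88103252, as Ugt1a6b does, although GENCODE M21 starts Ugt1a6a at 88134809. Its span takes in the first exon of Ugt1a6b (88106862 to 88107799), so its excess may hold reads of that exon too. For Ugt1a1, the bilirubin-conjugating form, the excess was 2 to 14 counts, and for Ugt1a10, Ugt1a9, Ugt1a8, Ugt1a5 and Ugt1a2 it was 0 to 9 counts.

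**Figure D2:**
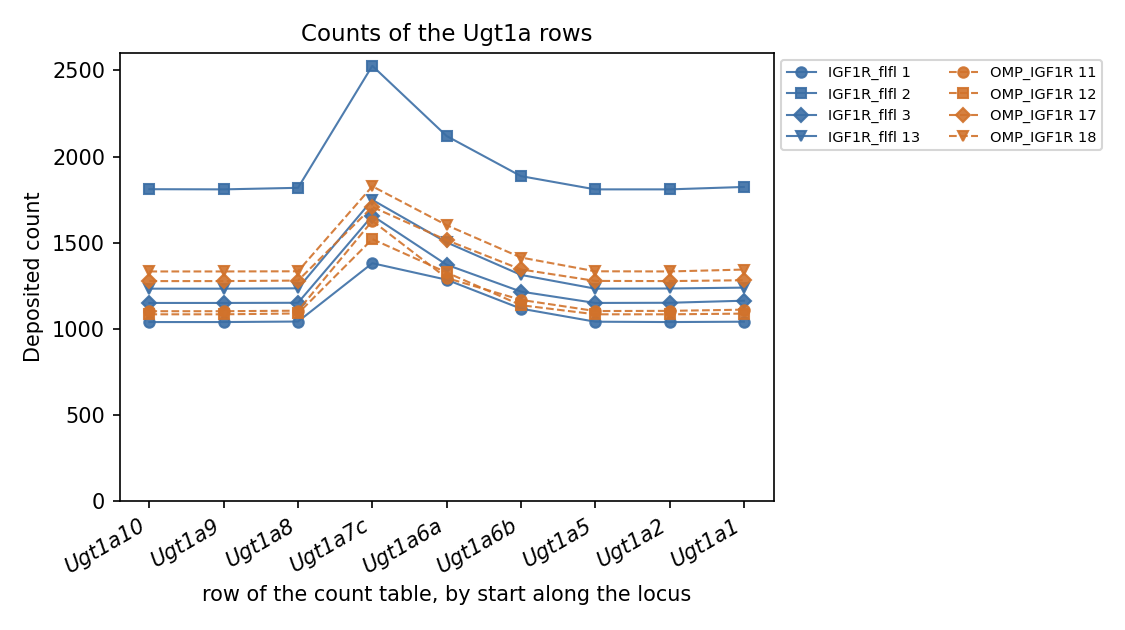
Deposited counts of the 9 Ugt1a rows in each of the 8 libraries (solid lines, IGF1R_flfl; dashed lines, OMP_IGF1R). Each library draws a flat line with rises at Ugt1a7c, Ugt1a6a and Ugt1a6b, and IGF1R_flfl 2 lies above the rest in every row.

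Ugt1a levels varied more between libraries than between the title groups. Ugt1a7c was at 49.97, 96.3, 65.7 and 79.4 CPM across the IGF1R_flfl libraries, against 83.0, 57.3, 75.5 and 70.2 CPM across the OMP_IGF1R libraries. The highest and the lowest library were both IGF1R_flfl, at a ratio of 1.93, and the OMP_IGF1R values lay between them. The group means were 72.8 ± 19.7 and 71.5 ± 10.8 CPM (n = 4 each), with a log2 fold change of -0.03 ± 0.19 and an edgeR adjusted p of 0.946. Ugt1a6a was at 62.4 ± 15.1 and 61.1 ± 7.81 CPM (n = 4 each; log2 fold change -0.03 ± 0.16, edgeR adjusted p = 0.931). IGF1R_flfl 2, the highest library for this locus, is also the one with olfactory bulb and oligodendrocyte genes at 1329 CPM, and their part in its Ugt1a level was not tested. Without IGF1R_flfl 2 the log2 fold change was 0.147 for Ugt1a7c and 0.128 for Ugt1a6a, so the direction turned, and neither passed the test.

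The remaining Ugt rows carried little RNA. Ugt2b34, a hepatic-type member, passed the filter with 13, 23, 6 and 29 counts across the IGF1R_flfl libraries, against 1, 1, 9 and 12 counts across the OMP_IGF1R libraries. Its log2 fold change of -1.55 ± 0.72 was farther from 0 than that of any other member, but the groups overlapped and the edgeR adjusted p was 0.229. The other Ugt2b rows, Ugt2a3 and both Ugt3a rows were not tested. Among all 18 untested members, 9 had no count in any library, and the most counts of any was 26 over the 8 libraries.

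Glutathione transferase RNA was led by the mu class, and here the only lower call among the members was found. Gstm1, a mu-class enzyme that conjugates electrophiles and epoxides, made up 50.9% of Gst CPM and ranked 55 of all genes. It was at 1290, 1197, 1322 and 1315 CPM across the IGF1R_flfl libraries, against 959.9, 945, 1091 and 1033 CPM across the OMP_IGF1R libraries. Every OMP_IGF1R library lay under every IGF1R_flfl library, and the means were further apart than the SD of either group. The means were 1281 ± 57.7 and 1007 ± 67.8 CPM (n = 4 each), and Gstm1 fell by 0.35 ± 0.07 (SE) on the log2 scale (95% interval from -0.48 to -0.21, edgeR adjusted p = 0.0176). The call was lost without OMP_IGF1R 11 (adjusted p = 0.0589), 12 (0.064) or 18 (0.0566), while the log2 fold change stayed between -0.378 and -0.318 over the 8 fits that each left out 1 library. The mature neuron markers were lower in the same libraries, and their part in the level of Gstm1 was not tested.

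The other 6 mu-class genes, which lie on the same stretch of chromosome 3 (chr3:107895821-108044894, GRCm38), were not called. Gstm2, an enzyme of like activity, is a neighbour of Gstm1 and the nearest to it in level, and was at 299, 287, 324 and 315 CPM in IGF1R_flfl and 287, 299, 306 and 290.4 CPM in OMP_IGF1R. Its groups overlapped almost fully (log2 fold change -0.05 ± 0.06, 95% interval from -0.16 to 0.07, edgeR adjusted p = 0.664). Within a library, the ratio of Gstm1 to Gstm2 counts needs no scaling by library size. It was 4.32, 4.18, 4.08 and 4.18 across the IGF1R_flfl libraries, against 3.34, 3.16, 3.56 and 3.56 across the OMP_IGF1R libraries. An exact two-sided permutation test gave p = 0.0286, the smallest that 70 arrangements allow, or 0.0429 adjusted over the 3 ratios computed, but the ratios were chosen after their values were seen and the p supports nothing. The means were 4.19 ± 0.0979 and 3.41 ± 0.191 (n = 4 each), and the groups did not overlap. The ratio of Gstm1 to Ugt2a1, the abundant glucuronosyltransferase described above and likewise chosen afterwards, was 0.184 ± 0.0196 against 0.141 ± 0.00862, again without overlap and with the same exact permutation p. The remaining ratio, Gsto2 to Wdr96 (an antisense gene described below), overlapped between the groups (exact permutation p = 0.0571).

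**Figure D3:**
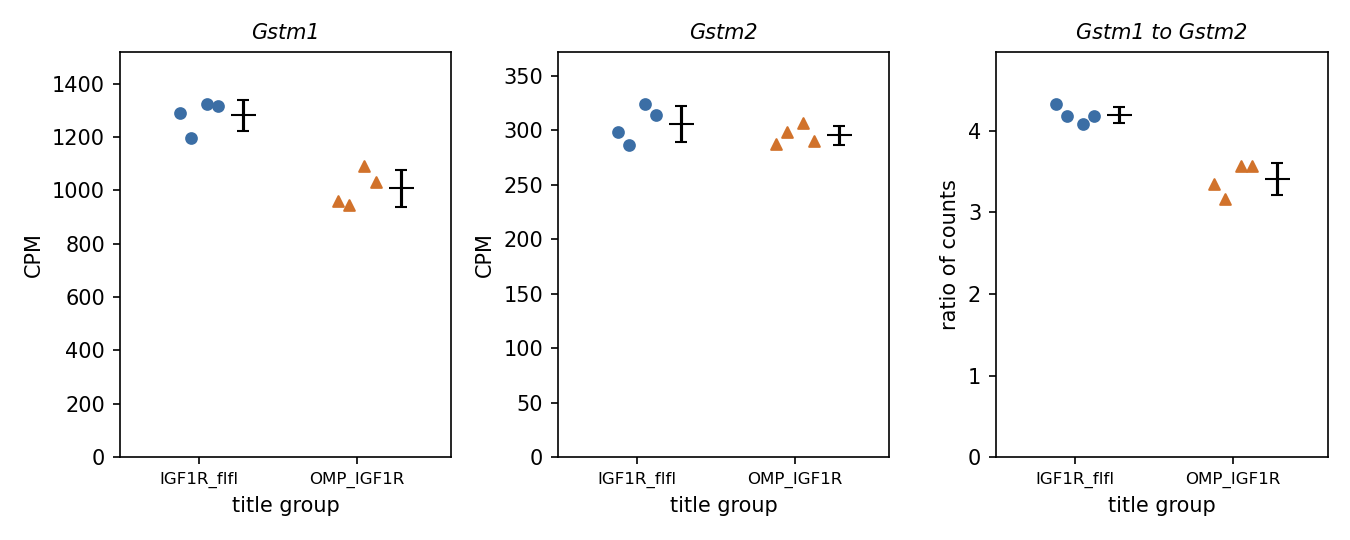
CPM of Gstm1 and Gstm2 and the ratio of their counts in each library, by title group (points, libraries; bars, mean ± SD, n = 4), on axes that start at 0. Gstm1 and the ratio were separate between the groups, at 1281 against 1007 CPM and 4.19 against 3.41, while Gstm2 overlapped.

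Gstm4, the neighbour on the other side, was at 32.6, 31.5, 33.5 and 35.2 CPM in IGF1R_flfl and 31.4, 25.5, 29.5 and 29.3 CPM in OMP_IGF1R. The groups were apart by a narrow margin, between 31.4 and 31.5 CPM, and the test was not passed (log2 fold change -0.20 ± 0.07, edgeR adjusted p = 0.131). Named after their values were seen, the remaining 4 genes of the cluster had log2 fold changes above 0, at 0.28 for Gstm5, 0.13 for Gstm7, 0.09 for Gstm6 and 0.68 for Gstm3, and all 4 overlapped. Gstm5, at 84.4 to 145 CPM in IGF1R_flfl and 118 to 176 CPM in OMP_IGF1R, varied by a factor of 2.08 over the 8 libraries. Gstm3 had only 16 to 41 counts in a library and shared 13.78% of its 100-base windows with Gstm1, Gstm6 and pseudogenes. Gstm1 shared 5.86%, so reads of these copies could have been split or dropped by the authors' counting.

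A pair of less abundant Gst genes had groups that did not overlap yet missed the adjusted threshold. Gstt1, a theta-class enzyme that acts on halogenated small molecules, was at 22.5, 22.6, 18.1 and 23.8 CPM across the IGF1R_flfl libraries, against 27.4, 26.2, 25.9 and 29.1 CPM across the OMP_IGF1R libraries. Every OMP_IGF1R library lay above every IGF1R_flfl library, with a log2 fold change of 0.32 ± 0.09 and an edgeR adjusted p of 0.0594. Its adjusted p was 0.0149 with DESeq2, 0.0374 with voom, and 0.0468 and 0.0333 in edgeR with upper-quartile factors and with raw totals. In edgeR with DESeq2 size factors it was 0.0531, and without the filter 0.0733. None of the 8 edgeR fits that left out 1 library called Gstt1 (adjusted p from 0.0542 to 0.163). The other theta-class genes had smaller values, at 0.10 ± 0.06 for Gstt3 and 0.02 ± 0.13 for Gstt2 (log2 fold changes), and Gstt4 had no count.

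Gsto2, an omega-class enzyme that reduces dehydroascorbate, was at 2.64, 1.91, 2.86 and 1.82 CPM across the IGF1R_flfl libraries, against 0.969, 1.28, 1.73 and 1.23 CPM across the OMP_IGF1R libraries. The lowest IGF1R_flfl value and the highest OMP_IGF1R value were close, at 1.82 and 1.73 CPM. The log2 fold change was -0.82 ± 0.23 with an edgeR adjusted p of 0.0615, and the adjusted p was 0.0422 with DESeq2 and 0.0358 with voom. Of the 8 edgeR fits that left out 1 library, only that without OMP_IGF1R 17 passed (0.0477), and the highest adjusted p was 0.156. Gsto2 lies wholly inside Wdr96, a ciliary gene on the opposite strand, and the strand setting of the counting is not given in the sources used here. Wdr96 was at 49.3 ± 9.16 and 50.8 ± 8.95 CPM (n = 4 each; log2 fold change 0.05, edgeR adjusted p = 0.888). The listed respiratory ciliated markers summed to 368 to 482 CPM in IGF1R_flfl and 323 to 365 CPM in OMP_IGF1R, and edgeR called 2 of 5 lower. All 5 of these markers had log2 fold changes below 0, 4 had an unadjusted edgeR p under 0.05, and DESeq2 and voom each called 3. Their part in Gsto2 was not tested. Gsto1, the other omega gene and likewise inside Wdr96, had a log2 fold change of 0.17 ± 0.17.

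The alpha, pi, zeta and kappa classes showed no call. Gsta3, an alpha-class enzyme that conjugates lipid aldehydes and toxins, was at 146, 173, 138 and 188 CPM in IGF1R_flfl and 164, 153, 179 and 174 CPM in OMP_IGF1R. Its groups overlapped, with a log2 fold change of 0.06 ± 0.10 (95% interval from -0.14 to 0.26, edgeR adjusted p = 0.770). Gsta4, which removes the lipid peroxidation product 4-hydroxynonenal, had means of 126 and 123 CPM and a 95% interval from -0.18 to 0.12. Gstp1, the pi-class enzyme, had means of 45.1 and 47.7 CPM. Gstz1, which works in tyrosine breakdown, had 55.7 and 59.9 CPM, and Gstk1, a mitochondrial and peroxisomal form, had 25.5 and 25.7 CPM. Reads of Gsta1 and Gsta2, and of Gstp1 and Gstp2, can come from near-identical copies, with 80.58% of the windows of Gsta1 and 46.92% of those of Gstp2 shared, so their separate values are uncertain.

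**Figure D4:**
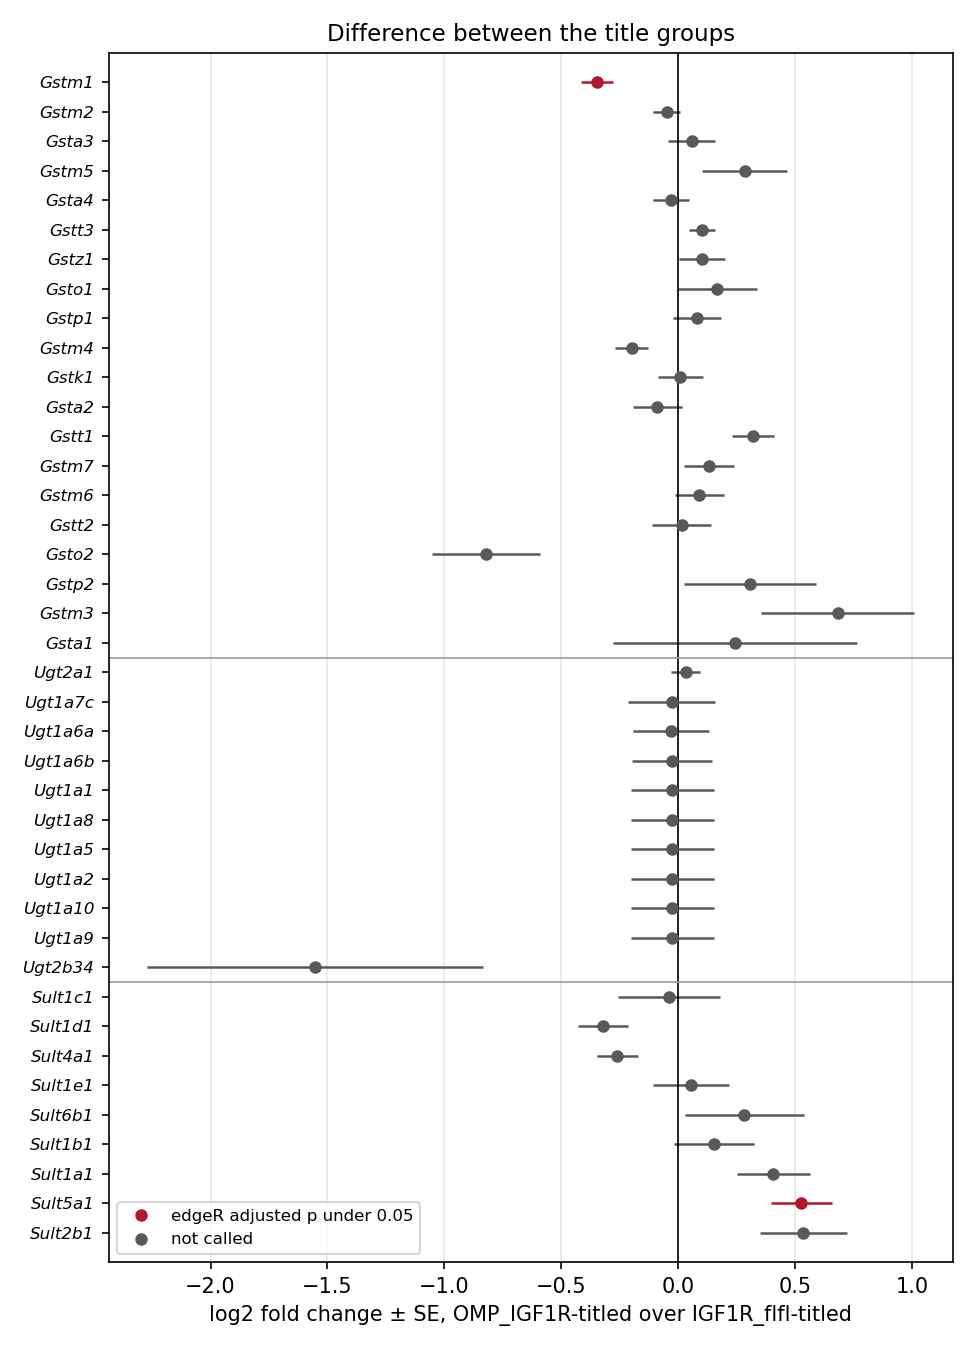
Log2 fold change (OMP_IGF1R over IGF1R_flfl) of each tested member with its standard error from edgeR, ordered by family and mean CPM, with called genes in red. Gstm1 at -0.35 and Sult5a1 at 0.53 are the called members, and the 9 Ugt1a rows repeat the same value.

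Sulfotransferase RNA came mostly from 2 genes, and the only higher call fell on a gene near the bottom of the family. Sult1c1 and Sult1d1 made up 42.8% and 33.7% of Sult CPM. Sult1d1, which sulfates catecholamines and other small phenols, was at 409, 448, 516 and 431 CPM across the IGF1R_flfl libraries, against 354, 314, 430.0 and 346 CPM across the OMP_IGF1R libraries. OMP_IGF1R 17 reached into the range of the other group, and its 3 companions lay below it. The log2 fold change was -0.32 ± 0.11 (95% interval from -0.53 to -0.11) with an edgeR adjusted p of 0.106. With DESeq2 the adjusted p was 0.032, and in edgeR without OMP_IGF1R 17, the library with 464 CPM of muscle genes, it was 0.0397. With voom it was 0.0613. The other 7 edgeR fits that left out 1 library did not pass, with adjusted p-values of up to 0.254. Sult1d1 lies between Sult1b1 and Sult1e1 on chromosome 5 (chr5:87513339-87591611, GRCm38), beside the row of Ugt2a1. Sult1b1, which sulfates thyroid hormones, had a log2 fold change of 0.15 ± 0.17, and Sult1e1, the estrogen sulfotransferase, 0.05 ± 0.16. For Sult1b1, OMP_IGF1R 11 lay far below the rest of its group, at 18.2 CPM against 31.3 to 32.8 CPM.

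Sult1c1, the most abundant sulfotransferase, varied widely between libraries. It stood at 355, 492, 729 and 512 CPM across the IGF1R_flfl libraries, against 567, 449, 632 and 385 CPM across the OMP_IGF1R libraries. The highest and the lowest library were both IGF1R_flfl, 2.05-fold apart, and the groups overlapped fully. The log2 fold change was -0.04 ± 0.22 with a 95% interval from -0.47 to 0.39 and an edgeR adjusted p of 0.936, and that interval leaves room for a difference of either sign. Its sign turned with raw totals (0.0307) and without IGF1R_flfl 3 (0.171), OMP_IGF1R 12 (0.016) or OMP_IGF1R 18 (0.073).

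Sult4a1, a brain-type member with no firmly known substrate, was at 123, 138, 147 and 110.0 CPM across the IGF1R_flfl libraries, against 113, 101, 111 and 108 CPM across the OMP_IGF1R libraries. The groups overlapped through IGF1R_flfl 13. The log2 fold change was -0.26 ± 0.09 with an edgeR adjusted p of 0.110. The adjusted p was 0.0604 with DESeq2 and 0.157 with voom. Of the 8 edgeR fits that left out 1 library, only that without IGF1R_flfl 13 passed (0.0391), and the highest adjusted p was 0.256. The sums of the mature neuron markers were lower in OMP_IGF1R, as given above, and their part in this value was not tested.

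Sult5a1, a sulfotransferase whose substrates are little studied, was at 2.25, 2.25, 2.46 and 2.32 CPM across the IGF1R_flfl libraries, against 3.27, 3.62, 3.05 and 3.42 CPM across the OMP_IGF1R libraries. These levels rest on 51 to 62 counts per IGF1R_flfl library and 64 to 96 counts per OMP_IGF1R library. The groups were well apart and each was tight, with means of 2.32 ± 0.0999 and 3.34 ± 0.239 CPM (n = 4 each). Sult5a1 rose by 0.53 ± 0.13 on the log2 scale (95% interval from 0.27 to 0.78, edgeR adjusted p = 0.0372). The call was lost in 7 of the 8 fits that left out 1 library, all but the fit without OMP_IGF1R 17, at adjusted p-values of up to 0.11. The gene lies wholly inside Gm20388, a far more abundant gene on the opposite strand, which was at 137 ± 12.1 and 128 ± 3.64 CPM (n = 4 each; log2 fold change -0.10, edgeR adjusted p = 0.439). Without a known strand setting, reads of Sult5a1 and Gm20388 cannot be told apart with certainty.

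A further pair of low sulfotransferases had an unadjusted p under 0.05. Sult2b1, the cholesterol sulfotransferase of skin, was at 1.59, 1.56, 2.18 and 1.91 CPM in IGF1R_flfl and 2.86, 2.00, 2.70 and 2.96 CPM in OMP_IGF1R (log2 fold change 0.54 ± 0.19, edgeR adjusted p = 0.121). Sult1a1, the phenol sulfotransferase, was at 7.97, 7.39, 5.71 and 8.40 CPM in IGF1R_flfl and 7.60, 10.1, 10.4 and 10.9 CPM in OMP_IGF1R (0.41 ± 0.15, edgeR adjusted p = 0.147). In both genes a single OMP_IGF1R library reached into the range of the other group, number 12 for Sult2b1 and number 11 for Sult1a1. Horizontal basal cell markers summed to 214 to 259 CPM in IGF1R_flfl and 285 to 482 CPM in OMP_IGF1R. Of these 6 markers edgeR called 2 higher, DESeq2 and voom each called 4, and 5 had an unadjusted edgeR p under 0.05. Their part in the values of Sult2b1 and Sult1a1 was not tested. Sult6b1 spread from 31.0 to 76.1 CPM over the 8 libraries, with a log2 fold change of 0.28 ± 0.25. All 6 Sult2a rows, which act on bile acids and steroids in liver, held 3 counts together over the 8 libraries.

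Compared per length, as CPM per kilobase of exon, the order of levels changed little at the top. Over all 8 libraries Ugt2a1 stood at 2119 CPM per kilobase and Gstm1 at 777, followed by Sult1c1 at 331, Gstm2 at 179 and Sult1d1 at 165. Gstm5 followed at 103 and Gsta4 at 98.1. Single Ugt1a rows lay between 14.3 and 23.6 CPM per kilobase, mostly from the same reads. The called Sult5a1, at 0.640 CPM per kilobase, was about as low as Gsto2 at 0.768 and Sult2b1 at 0.562. Summed by family and with the Ugt1a locus counted once, Gst genes came to 2364 ± 80.7 CPM in IGF1R_flfl and 2130 ± 123 CPM in OMP_IGF1R (n = 4 each). The Ugt sum was 7054 ± 572 and 7207 ± 225 CPM, and the Sult sum 1257 ± 202 and 1152 ± 145 CPM. In all 3 sums the groups overlapped, at 2281 to 2469 against 1985 to 2284 CPM for Gst.

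**Figure D5:**
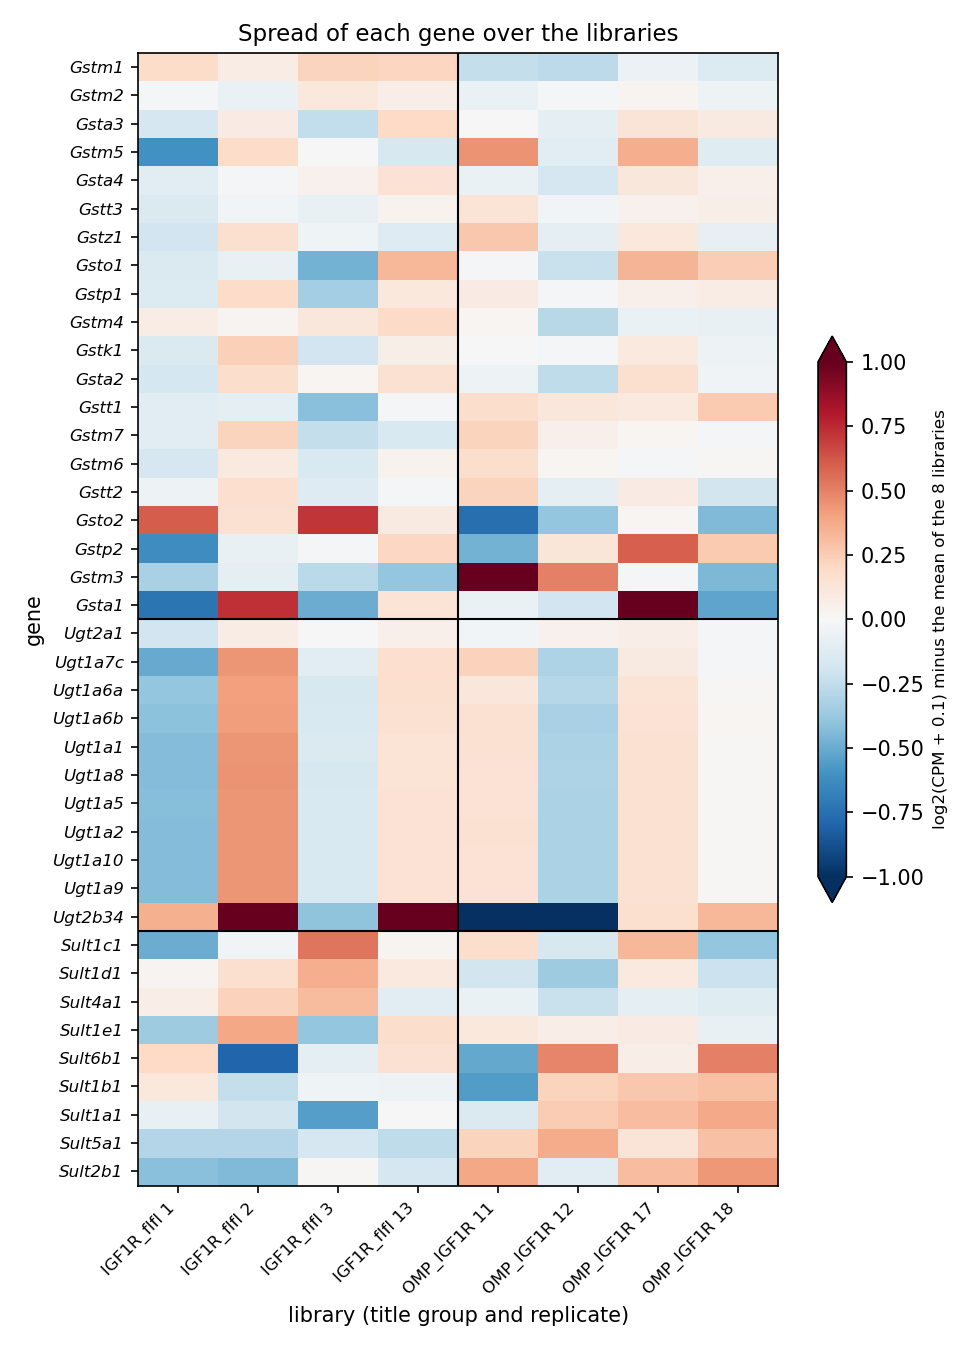
Log2(CPM + 0.1) of each tested member in each library minus its mean over the 8 libraries, with a line between IGF1R_flfl (left) and OMP_IGF1R (right). IGF1R_flfl 1 held the lowest value in 10 of 32 loci and the highest in 0. Wide spreads lie at low-count genes and along the repeated Ugt1a rows, but also at better counted genes. The highest library was 2.46-fold the lowest for Sult6b1, 2.08-fold for Gstm5 and 2.05-fold for Sult1c1.

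The highest and lowest libraries of single loci were spread over both title groups. Counting the Ugt1a rows as 1 locus leaves 32 tested loci, of which 2 were called (6.25%) and 21 had a log2 fold change above 0, with a median of 0.07. IGF1R_flfl 1 was the lowest library in 10 of these loci and the highest in none. IGF1R_flfl 3 was the highest in 6 and the lowest in 8, among them Sult1c1 and Sult1d1 at the high end and Gsta3, Gstt1 and Sult1a1 at the low end. OMP_IGF1R 12 was the lowest in 7, Gstm1, Sult1d1 and Sult4a1 among them, and OMP_IGF1R 11 the highest in 7.

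Related pathway genes showed 3 calls among 62 tested (4.84%, against 8.20% of all genes), 1 higher and 2 lower. They include genes that supply donors to these enzymes, undo their work, export conjugates or control their transcription. Epoxide hydrolases, membrane and other glutathione transferases, and genes of methyl, acetyl and amino acid conjugation are also among them. Unadjusted p-values under 0.05 were found for 14 of the 62, against 23.5% of all genes, and the median log2 fold change was 0.04. Gdap1, a glutathione transferase-like protein of the mitochondrial outer membrane in neurons, was at 83.3, 90.2, 86.0 and 78.5 CPM across the IGF1R_flfl libraries, against 59.2, 54.5, 70.7 and 64.2 CPM across the OMP_IGF1R libraries. The groups did not overlap, and Gdap1 fell by 0.44 ± 0.08 on the log2 scale (edgeR adjusted p = 0.0132). It was called in each of the 8 fits that left out 1 library, with adjusted p-values of 0.0101 to 0.0445. It was the only edgeR call among 10 membrane and other glutathione transferases, while DESeq2 and voom also called Hpgds. Hpgds, a glutathione-dependent prostaglandin D synthase named after its values were seen, was at 4.35 ± 1.04 and 6.81 ± 0.930 CPM (n = 4 each) without overlap (log2 fold change 0.65 ± 0.19, edgeR adjusted p = 0.0628). Mature neuron markers were lower in the same libraries as Gdap1, and their part was not tested.

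Uxs1, which turns UDP-glucuronic acid into UDP-xylose and so draws on the same donor, was at 51.1, 55.1, 54.9 and 57.9 CPM across the IGF1R_flfl libraries, against 41.3, 47.0, 49.8 and 42.6 CPM across the OMP_IGF1R libraries. It fell by 0.28 ± 0.07 on the log2 scale (edgeR adjusted p = 0.04), without overlap, and was the only call among 5 UDP-sugar genes. Leaving out single libraries kept the call in 1 of 8 fits, the one without OMP_IGF1R 17, with adjusted p-values from 0.0334 to 0.126. Ugdh, the dehydrogenase that makes UDP-glucuronic acid, was at 358 ± 35.1 and 399 ± 9.74 CPM (n = 4 each; log2 fold change 0.16 ± 0.08, edgeR adjusted p = 0.252).

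Ahrr, the repressor of the aryl hydrocarbon receptor, was the only edgeR call among 11 tested regulators. It had 10, 11, 7 and 6 counts across the IGF1R_flfl libraries, against 14, 25, 15 and 16 counts across the OMP_IGF1R libraries. Ahrr rose by 1.12 ± 0.27 on the log2 scale (edgeR adjusted p = 0.0331) from means of 0.333 and 0.734 CPM, and kept its call in 1 of the 8 fits that left out 1 library, the one without IGF1R_flfl 2 (adjusted p from 0.0341 to 0.108 over the 8). DESeq2 gave an adjusted p of 0.0775. Ahr, the receptor itself, was at 25.1 ± 3.33 and 26.4 ± 2.50 CPM (n = 4 each; edgeR adjusted p = 0.743). Nfe2l2, which encodes NRF2, the activator of many of these enzymes, was at 291, 256, 315 and 263 CPM in IGF1R_flfl and 219, 233, 242 and 234 CPM in OMP_IGF1R. Its groups did not overlap, and the test was narrowly missed (log2 fold change -0.28 ± 0.07, edgeR adjusted p = 0.0526). The threshold was passed with DESeq2 (adjusted p = 0.00711), with voom (0.0251) and in edgeR without IGF1R_flfl 2 (0.0348). The other 7 edgeR fits that left out 1 library missed it, with adjusted p-values of up to 0.131. Keap1, which holds NRF2 in check, was at 80.5 ± 4.19 and 75.9 ± 4.04 CPM (n = 4 each).

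The remaining 5 lists had 0 edgeR calls. Unadjusted edgeR p-values under 0.05 were nevertheless found for 2 of 7 glutathione supply genes and 1 of 8 transporters. The same held for 1 of 7 genes of sulfate donor supply and sulfatases, Bpnt1 (log2 fold change -0.16, named after its values were seen). DESeq2 called 1 glutathione supply gene, Gclc, and voom called 2, Gclc and Slc7a11 (named after their values were seen), while both called 0 in the other 4 lists. Gclc and Slc7a11 differed in opposite directions, with edgeR log2 fold changes of -0.18 ± 0.05 and 0.46 ± 0.17. Of 11 methyl, acetyl and amino acid conjugation genes and 3 deconjugation and epoxide hydrolase genes, 0 had an unadjusted edgeR p under 0.05. Their most abundant genes had small values. Ggt7, a gamma-glutamyltransferase family member, had a log2 fold change of 0.02 ± 0.09. Papss2, which makes PAPS, had 0.15 ± 0.13, and Inmt, an indolamine methyltransferase, 0.25 ± 0.18. Ephx1, the microsomal epoxide hydrolase, had -0.12 ± 0.11. Abcc1, an exporter of glutathione conjugates, had -0.18 ± 0.08. In the list of Gdap1, Mgst1, the microsomal glutathione transferase, was the most abundant gene and had -0.15 ± 0.11.

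The authors' deposited table of a DESeq2 comparison covers the 58 members and gives 38 of them an adjusted p. An adjusted p under 0.05 stands in the authors' deposited table for 5 members, Gstm1, Gstt1, Sult1d1, Sult5a1 and Gsto2. The group over which its fold changes were taken is not stated there, and their sign was that of the edgeR fit in all 40 tested members. For Gstm1 the authors' deposited table gives a log2 fold change of -0.33 with an adjusted p of 3.48e-06, and for Sult5a1 0.42 with 0.0363. Its values for Gstt1, Sult1d1 and Gsto2 in the authors' deposited table are 0.30, -0.29 and -0.49, with adjusted p-values of 0.0145, 0.0301 and 0.0423. For the low-count Gsto2 and Sult5a1 the authors' fold changes lie nearer 0 than those of DESeq2 as run here (-0.816 and 0.539). The authors' DESeq2 version is not given, so the sizes are not directly comparable.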

How the data were processed

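Per the labels' protocols, RNA was purified on RNeasy columns and sequenced as stranded TruSeq libraries with 100 bp paired reads. The submitters' processing notes name Trim Galore 0.3.7, TopHat2 2.0.14, SAMtools 1.2, DESeq2 and the GRCm38 build; the counting step is not given in the sources used here. The authors deposited raw counts per gene and library, and 8 further columns of standard deviations, all 0, were not used. The authors' comparison table holds a signal (the mean normalized count), log2 fold changes with standard errors, a score (the test statistic) and p-values, raw and adjusted, per the file headers. Text after the identifier was trimmed in 23 identifiers.

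The main test was edgeR 4.0.16's quasi-likelihood F-test on the deposited counts, with TMM factors, filterByExpr (17381 of 25913 genes kept) and Benjamini-Hochberg adjustment over all genes kept, the threshold being 0.05. DESeq2 1.42.0 and voom with sample weights (limma 3.58.1) were alternatives, with other scalings and filters, and each library left out in turn. The main edgeR test, DESeq2 and voom were tested on simulated data drawn from the edgeR fit. The other scalings and filters and the fits with a library left out were not. A 95% interval is the estimate ± 1.96 SE, a normal approximation that is too narrow for 4 libraries per group. For Ugt2b34 it would run from -2.96 to -0.15, although its unadjusted edgeR p was 0.0573. Exons, strands and shared 100-base windows came from GENCODE M21 (GRCm38), where all 58 members had a length.

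Members and gene lists were chosen with earlier results of these data known. Named were members called, not overlapping between groups or with an unadjusted p under 0.05, the 3 of highest mean CPM in each family, and, of each pathway list, called genes and the gene of highest mean CPM. Keap1, Ahr, Hpgds, the rest of the Gstm cluster and other members given with values were added afterwards. No 2 libraries were copies (mean chi-square per gene of 11.91 to 108.9 within groups). Precision at low levels is limited by counting, and the floor of 3 counts covers counting error only.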

Additional observations from a re-analysis of the deposited data

Results flagged for a closer look

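Within groups of 4 libraries, 8 of 110 groups of values held a library far from the other 3 by Dixon's criterion, where chance alone flags about 1 in 20. None of the member genes screened was flagged, but not every member was screened. Sult1b1, which was not, stood at 18.2 CPM in OMP_IGF1R 11 against 31.3 to 32.8 CPM in its companions. Ephx1 stood at 490 CPM in OMP_IGF1R 12 against 443 to 450 CPM in its companions. The summed deconjugation and epoxide hydrolase genes, which include Ephx1, stood at 661 against 601 to 609 CPM. Ggt7 stood at 339 CPM in OMP_IGF1R 11 against 299 to 304 CPM.

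The other 5 flagged groups were sums of cell type markers. OMP_IGF1R 17 was low in neuronal precursor and dividing cell markers (101 against 134 to 136 CPM), high in horizontal basal cell markers (482 against 285 to 309 CPM) and high in skeletal muscle genes (464 against 4.94 to 7.19 CPM). IGF1R_flfl 2 was high in olfactory bulb and oligodendrocyte genes (1329 against 64.0 to 66.1 CPM). IGF1R_flfl 3 was low in fibroblast and endothelium genes (1216 against 1556 to 1604 CPM).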

How the results depend on the processing

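Among 525 single-gene values recomputed, 456 kept their direction and side of the threshold, 31 lost a call, 16 gained one and 22 turned direction. Against 1 each, higher-called members numbered 2 with DESeq2, voom, upper-quartile factors or raw totals and 0 without the filter or without both IGF1R_flfl 2 and OMP_IGF1R 17. Lower-called members numbered 3 with DESeq2, 2 with voom and 3 without both libraries. Called pathway genes, 3 by default, numbered 5, 7 and 6 under those 3 settings and 1 without the filter. DESeq2 called 2140 genes in all, against 1425. Leaving out 1 library gave 569 (without OMP_IGF1R 18) to 1477 called genes (841 without IGF1R_flfl 1, 886 without 3, and 724 and 613 without OMP_IGF1R 11 and 12), 0 to 1 higher and 0 to 3 lower members, 1 to 6 pathway genes and a member median of -0.0411 to 0.15. Of all calls, 34.5% were higher with TMM, 44.4% with upper-quartile factors and 58.8% with raw totals, which put the median of all genes at 0.06.

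Every value that turned direction had an adjusted p above 0.6. With raw totals these were Gstm2 at 0.0217, Sult1c1 at 0.0307, Ugt1a6a at 0.0392 and Ugt1a7c at 0.0443. Ugt1a7c reached 0.00303 with upper-quartile factors, 0.0305 with voom and 0.121 without both libraries, and Ugt1a6a 0.0109 with voom and 0.0821 without both. Leaving out 1 library moved Gsta3 between -0.00202 and 0.148, Sult1c1 between -0.185 and 0.171, Ugt1a6a between -0.151 and 0.128, Ugt1a7c between -0.172 and 0.147, Ugt2a1 between -0.0229 and 0.0723, and Ggt7 between -0.0333 and 0.112. The cause was not tested. No paired analysis was possible because the titles give the groups no replicate number in common. Members under about 100 counts in a library, such as Gsto2 and Sult5a1, are limited by depth.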
